A study of Bos taurus with 8 samples.

Results

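The nuclear factor I family is a set of 4 genes, NFIA (ENSBTAG00000000074), NFIB (ENSBTAG00000027442), NFIC (ENSBTAG00000008520) and NFIX (ENSBTAG00000018229), and each has 1 row among the 21880 genes of the deposited matrices. The 4 members were taken by symbol, and the family was chosen by its levels across cell types and stages of culture in these same libraries. Those levels and their contrasts are therefore given as a description, without a test. Tests are given for contrasts within a type and stage, by age, cell cycle phase, MYOG class and kind of culture, although the choice was made with earlier results of these libraries known.

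Nuclear factor I proteins are transcription factors that bind DNA as homodimers or heterodimers through a conserved domain at the amino terminus, and vertebrate genomes carry these paralogs. NFIA is known for glial fate and for brown fat and erythroid programs, NFIB for lung, brain and hair follicle stem cells, NFIC for tooth root formation, and NFIX for the switch from embryonic to fetal myogenesis and for the regeneration of adult muscle. In skeletal muscle NFIX is the member best known in myogenic cells.

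Cells came from semitendinosus muscle of 10 Belgian Blue cattle and were sequenced at 5 timepoints, each as 1 pooled library, so the timepoint and the library cannot be told apart. Timepoint 1 was collagenase-digested, unsorted muscle, and Timepoint 2 held the cells that had attached within 72 h of plating in medium without serum (passage 0); the series description calls these unsorted, although their labels also list SCs and FAPs. Timepoints 3, 4 and 5 were passages 2, 5 and 8 of unsorted cultures on fibronectin (donors 1, 2 and 9), of sorted satellite cells (SCs) on laminin-521 (donors 5, 6 and 10) and of sorted fibro-adipogenic progenitors (FAPs) on collagen I (donors 4, 7 and 8). Each donor was kept as 1 kind of culture, so culture and animal cannot be told apart either, and donor 3 was sequenced from muscle alone. Donors 2, 4, 5, 7 and 10 were calves and donors 1, 3, 6, 8 and 9 adults according to the animal table of the study, not to the sample labels. By the same table donors 6, 8 and 10 were male and the others female, so sex was not balanced between ages or kinds of culture.

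The 36129 quality-filtered cells numbered from 2772 to 10405 per library, with 20977722 to 252316585 unique molecular identifiers (UMIs) and a median of 4184 UMIs per cell in muscle against 18340 to 27239.5 in culture. Among the cells 129 barcode sequences occurred in more than 1 library. Cell types are those of the deposited annotation. Of the 5 markers fixed for each type, FAPs and SCs of muscle held the highest level in 3 each, SCs of passage 0 and monocytes and macrophages of muscle also in 3, FAPs of passage 0 and vascular endothelial cells (VECs) of both stages in 5, and FAPs and SCs of passages 2 to 8 in 5 each, and no marker was at 0 in its own type. The UMIs of each cell type were added up within a donor wherever that donor had at least 10 such cells, and levels are given as CPM, the member's UMIs as a share of all UMIs of that sum. Because 3′ counts depend on how well each gene's 3′ end is annotated, levels are compared within a gene and not between genes. A lower CPM in a type can stand for less RNA of that gene or for more of other RNAs, which such shares cannot separate.

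In muscle each member had its own order of cell types, with lymphocytes and with monocytes and macrophages at the low end for all 4. The types compared were FAPs, SCs, VECs, smooth muscle and mesenchymal cells (SMMCs), lymphatic endothelial cells (LECs), monocytes and macrophages, and lymphocytes. NFIA was 271 ± 34.1 CPM in SCs (SD, n = 10 donors) and 228 ± 28.8 CPM in FAPs. The donors ran from 221 to 336 CPM in SCs, with a median of 271, and from 189 to 273 CPM in FAPs, with a median of 223. Overlap between cell types of muscle is that of mean ± SD here and below, not that of single donors. SCs and FAPs overlapped, while SMMCs (155 ± 34.1 CPM) and VECs (155 ± 34.4 CPM) lay below FAPs by more than the SDs. Single donors of SMMCs (up to 230 CPM) and of VECs (up to 193 CPM) still reached the range of FAPs. LECs held 67.9 ± 26.2 CPM in 4 donors, monocytes and macrophages 16.8 ± 12.3 CPM and lymphocytes 10.9 ± 9.37 CPM.

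NFIB had another order, with VECs first. Its level was 232 ± 42.4 CPM in VECs, with the lowest donor at 160, the median at 237 and the highest at 288. FAPs held 209 ± 50.8 CPM, from 140 to 277 with a median of 221, which overlapped VECs. LECs (133 ± 26.3 CPM), SMMCs (107 ± 37.0 CPM) and SCs (107 ± 39.8 CPM) each overlapped the type before them in the order. Lymphocytes (27.0 ± 36.2 CPM) were below SCs by more than the SDs, although single donors overlapped (up to 117 CPM, against SCs from 51.2 CPM). Monocytes and macrophages were lowest, at 3.22 ± 4.56 CPM.

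NFIC was the most evenly spread member. SCs held 228 ± 49.4 CPM, FAPs 215 ± 33.1, LECs 193 ± 55.3, VECs 132 ± 30.8 and SMMCs 97.3 ± 18.4 CPM, and each of these overlapped the next. Monocytes and macrophages (48.1 ± 19.6 CPM) were below SMMCs by more than the SDs, although single donors overlapped (up to 81.5 CPM, against SMMCs from 65.2 CPM). Lymphocytes held 27.0 ± 28.7 CPM. The ratio of the highest to the lowest mean was smaller for this gene than for the other three.

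NFIX was highest in SCs and FAPs among the 7 types with donor sums. SCs held 85.2 ± 18.0 CPM, with donors from 58.8 to 112, and FAPs 71.3 ± 13.1 CPM, with donors from 51.7 to 89.2 and a median of 72.8. VECs held 11.4 ± 10.1 CPM and SMMCs 5.80 ± 7.32 CPM, although both were rich in NFIA. LECs varied from 15.2 to 107 CPM over 4 donors and overlapped FAPs. No NFIX UMI was found in the 51 neutrophils, which allows a level of up to 30.4 CPM at a floor of 3 counts.

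**Figure D1:**
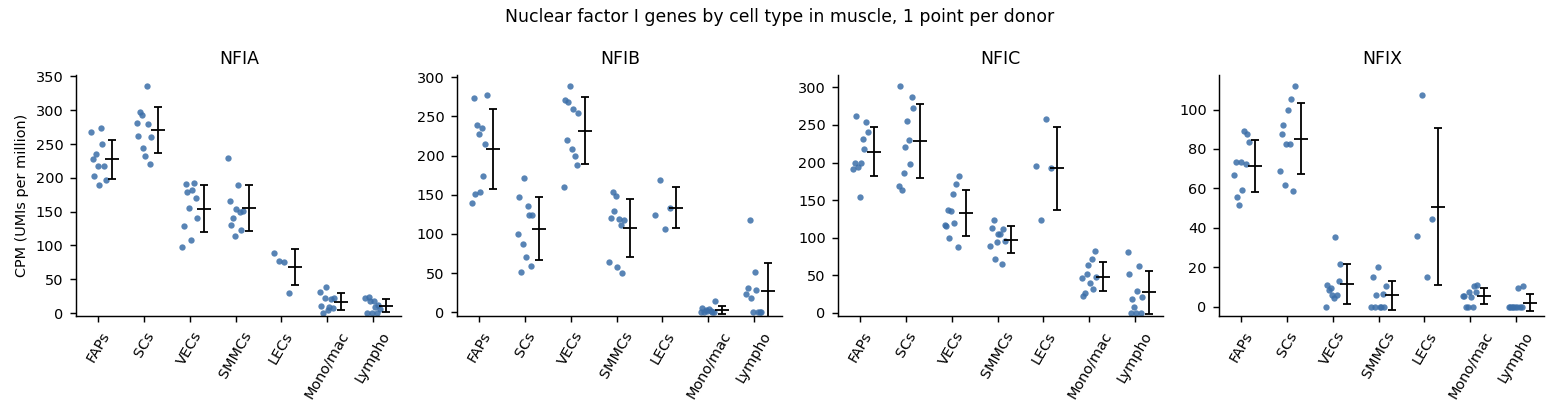
CPM of the 4 genes in 7 cell types of muscle, 1 point per donor with at least 10 cells and the mean ± SD beside the points; n = 10 donors, 4 for LECs. NFIA and NFIC are highest in SCs and FAPs, NFIB in VECs and FAPs, and NFIX is at 71.3 and 85.2 CPM in FAPs and SCs against 11.4 CPM or less in VECs, SMMCs and leukocytes.

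Rare types had too few cells per donor, and their pooled counts cover counting error only. The 23 tenocytes gave 289 NFIA CPM (95% exact Poisson interval 207 to 392), 162 NFIB CPM (103 to 243), 169 NFIC CPM (108 to 252) and 162 NFIX CPM (103 to 243). Their NFIX level stood above every donor's SCs in the point value, with an interval that reached down to 103 CPM. The 45 myocytes gave 84.2 NFIA CPM (46.0 to 141) and 72.2 NFIX CPM (37.3 to 126). The 51 neutrophils gave 162 NFIA CPM (92.6 to 263), above the other leukocytes, from 16 UMIs at a median depth of 1410 UMIs per cell. Their NFIB (91.1 CPM) and NFIC (121 CPM) were above the other leukocytes too in the point values. How much of this was RNA from other cells was not tested. The 12 glial cells gave 8 NFIA UMIs and 1 NFIX UMI.

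The share of cells with a UMI was also far lower in lymphocytes than in FAPs and SCs, but FAPs, the deeper cells, had a larger share than SCs where their CPM was lower. NFIA was detected in 66.0% ± 4.68 of muscle FAPs per donor (median depth 6213 UMIs per cell) and 62.4% ± 8.39 of SCs (3861 UMIs). It was detected in 4.93% ± 4.13 of lymphocytes (4407 UMIs), the type set beside them as background. NFIB and NFIC were detected in 8.39% ± 9.37 and 12.5% ± 14.3 of lymphocytes. How much of these lymphocyte shares was free RNA was not tested. NFIX was detected in 31.2% ± 7.23 of FAPs, 28.8% ± 7.90 of SCs and 0.845% ± 1.82 of lymphocytes. With each cell thinned to 2000 UMIs, at least 1 member was seen in 74.5% ± 4.19 of FAPs, 75.8% ± 6.29 of SCs, 60.2% ± 8.17 of VECs and 12.1% ± 8.49 of lymphocytes; 38 FAPs, 46 SCs, 336 VECs and 2 lymphocytes were too shallow and were left out.

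After 72 h in culture the family split. NFIA and NFIB were several times lower in each of the 3 types compared, NFIC was moderately lower in FAPs and SCs and higher in VECs, and NFIX was lower in FAPs but close to its muscle level in SCs. In FAPs NFIA ran from 21.8 to 54.1 CPM at passage 0 with a median of 24.5. Every donor at passage 0 lay below every donor in muscle, and the log2 fold change (log2FC) was -2.93 (SE 0.17). NFIB ran from 20.9 to 35.6 CPM with a median of 25.5, again without overlap, for a log2FC of -2.87 (SE 0.15). NFIX ran from 27.1 to 47.7 CPM with a median of 35.1, without overlap with muscle, for a log2FC of -0.91 (SE 0.12). NFIC ran from 135 to 155 CPM with a median of 142, touching the lowest muscle donor, for a log2FC of -0.45 (SE 0.07). Each of the 4 was lower in 9 of 9 donors sequenced at both stages. All 4 members were thus below 0, with a median of -1.89, while over the 9208 genes fitted 49.0% were below 0 and the median was 0.03.

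In SCs the large differences were those of NFIA and NFIB. NFIA was 32.4 ± 2.91 CPM at passage 0, from 29.4 to 38.1 (median 31.2), for a log2FC of -3.08 (SE 0.09). NFIB was 34.7 ± 3.76 CPM, from 28.5 to 38.9 (median 35.0), for a log2FC of -1.72 (SE 0.15). Both were lower in 9 of 9 donors with no overlap. NFIC was 172 ± 3.95 CPM, lower in 9 of 9 donors, with a log2FC of -0.46 (SE 0.09). NFIX was 79.5 ± 8.55 CPM, lower in 6 and higher in 3 of 9 donors, with a log2FC of -0.16 (SE 0.11) whose sign turned to 0.17 when no filter on low counts was applied. The median of the 4 members was -1.09 against 0.02 over 5221 genes, 49.1% of them below 0.

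VECs showed the reverse for NFIC. NFIA was 16.8 ± 3.50 CPM at passage 0 (log2FC -3.25, SE 0.14) and NFIB 46.7 ± 6.88 CPM (log2FC -2.37, SE 0.11), both lower in 9 of 9 donors without overlap. NFIC was 218 ± 26.3 CPM, from 165 to 254 with a median of 225, and higher than in muscle in 9 of 9 donors (log2FC 0.69, SE 0.11), with the lowest cultured donor inside the muscle range of 87.4 to 182 CPM. NFIX was 8.21 ± 1.78 CPM and did not pass the filter on low counts. Of the 3 members fitted 2 were below 0, against 50.5% of 5896 genes.

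**Figure D2:**
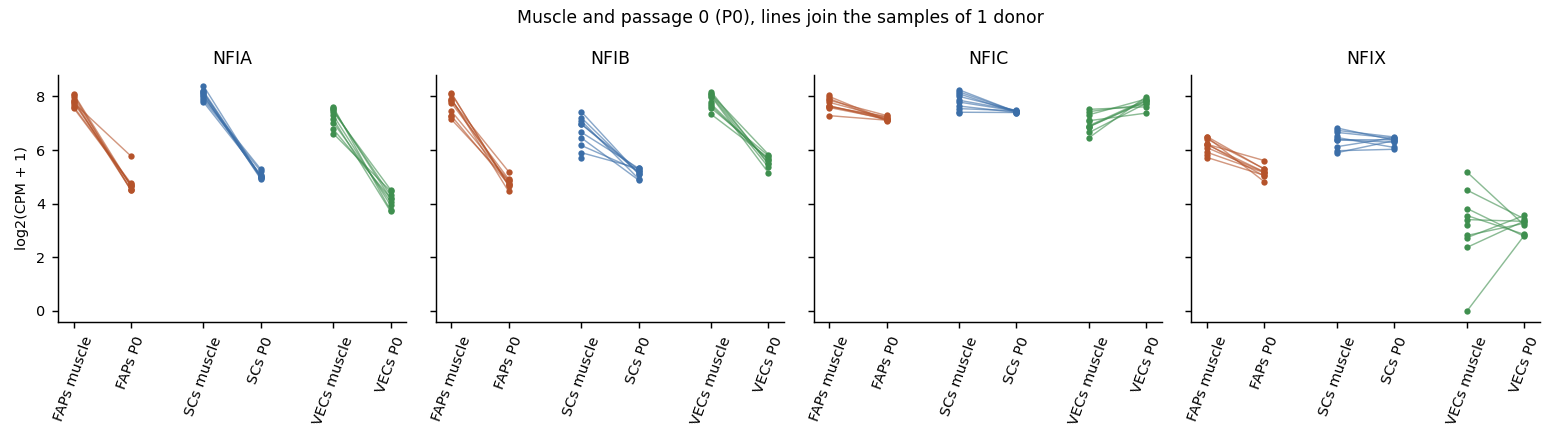
log2(CPM + 1) of the 4 genes in FAPs, SCs and VECs of muscle and of passage 0, 1 point per donor, with lines joining the samples of 1 donor. NFIA and NFIB are lower at passage 0 in every donor of the 3 types, NFIC is lower in 9 of 9 donors of FAPs and of SCs and higher in 9 of 9 of VECs, and NFIX of SCs moves in both directions.

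The other types followed in part. In SMMCs NFIA was lower in 7 of 7 donors and NFIB in 7 of 7, while NFIC and NFIX were higher in 7 of 7 each. NFIX went from 5.80 ± 7.32 to 13.0 ± 5.94 CPM, but its muscle level rested on 13 UMIs in 548 cells, with donors down to 0 CPM. In LECs NFIA and NFIB were lower in 3 of 3 donors each. NFIB of LECs was 133 ± 26.3 CPM in muscle and 74.2 ± 16.6 CPM (n = 7) at passage 0. The latter was above VECs by more than the SDs, although single donors overlapped (LECs from 51.4 CPM, VECs up to 56.0 CPM). Monocytes and macrophages held 18.4 ± 14.5 NFIA CPM, near the 16.8 CPM of muscle. Their NFIB was higher in 6 of 7 donors (18.5 ± 13.9 against 3.22 ± 4.56 CPM), NFIC in 7 of 7 and NFIX in 6 of 7. In muscle their 403 cells gave only 9 NFIB and 13 NFIX UMIs, with donors down to 0 CPM for both.

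As a share of all UMIs of the family, NFIA and NFIB together made up 60.4% ± 4.42 in FAPs of muscle and 23.0% ± 3.90 at passage 0, 54.7% ± 6.17 and 21.0% ± 0.947 in SCs, and 72.8% ± 5.06 and 21.9% ± 2.06 in VECs. FAPs (52.7% to 66.1%) and SCs (44.7% to 61.6%) of muscle overlapped. This share does not depend on scaling between libraries, but each gene enters it with its own capture.

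Several measures moved together with the stage. The library of muscle was shallower, with 270458 to 2268755 UMIs per donor sum of FAPs against 10321593 to 23061306 at passage 0. The 5 myocyte markers summed to 742 to 1233 CPM in FAPs of muscle and to 0.554 to 2.09 CPM at passage 0, to 323 to 982 against 0 to 2.02 CPM in SCs, and to 315 to 1113 against 0 to 3.60 CPM in VECs. The mean percent of mitochondrial UMIs overlapped between stages in FAPs (2.84 to 3.55 and 2.91 to 3.34) but not in SCs (3.53 to 4.58 and 2.90 to 3.27) or VECs (2.59 to 3.58 and 1.36 to 1.96). Their part in the levels of the members was not tested, and with all donor sums thinned to the smallest the log2FC of FAPs was -3.04 for NFIA, -3.21 for NFIB, -0.94 for NFIX and -0.71 for NFIC.

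Thinned to 2000 UMIs per cell, NFIA was detected in 35.6% of muscle FAPs and in 5.26% of those at passage 0, NFIB in 35.6% and 5.16%, NFIC in 35.8% and 24.3%, and NFIX in 13.1% and 7.77%. Monocytes and macrophages of passage 0 (7568 UMIs per cell against 24188 in FAPs), the type set beside them as background, had thinned shares of 4.85% ± 6.08 for NFIA, 4.72% ± 4.73 for NFIB, 15.7% ± 9.63 for NFIC and 5.46% ± 5.35 for NFIX. The thinned shares of each member in FAPs at passage 0 lay within the SD of this type. It cannot be taken as a clean background. NFIB, NFIC and NFIX were higher in this type than in muscle in most donors, and its cells were shallower. Whether these counts were its own RNA was not tested. The thinned shares thus cannot decide how much was free RNA, which was not tested. In pooled counts FAPs held 28.1 NFIA CPM (95% exact Poisson interval 27.2 to 29.0) and monocytes and macrophages 17.2 CPM (10.9 to 25.8). For NFIB these were 26.9 CPM (26.1 to 27.8) and 17.2 CPM (10.9 to 25.8). Mean ± SD over donors overlapped for both genes. Unthinned NFIA was seen in 41.0% ± 8.19 of FAPs and 14.7% ± 10.6 of monocytes and macrophages. The unthinned shares of NFIX (31.2% and 48.3% ± 5.60) and NFIC (67.2% ± 6.38 and 84.3% ± 3.30) went the other way, against their CPM.

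The list of genes linked to the family in other systems held 19 genes with a row, of which 11 could be fitted in FAPs. In FAPs 7 of these 11 were lower at passage 0, with a median log2FC of -2.67. Lowest were CKM, the muscle creatine kinase (211 CPM in muscle and 0.0472 CPM at passage 0), which is also 1 of the myocyte markers above, and the Notch target HES1 (249 ± 77.1 and 14.8 ± 5.42 CPM). The Polycomb methyltransferase EZH2 was highest, at 6.63 ± 2.24 and then 47.0 ± 7.96 CPM. Of 42 other stromal and myogenic transcription factors fitted, 35 were lower, with a median of -1.33; KLF9 and CREB5 had the largest negative values (log2FC -3.64 and -3.48), and the mesenchymal factors PRRX1 (1.69) and TWIST2 (0.90) the largest positive ones. In SCs 16 of 18 of these factors were lower with a median of -1.48, and in VECs 17 of 19 with a median of -1.84. The values of NFIA and NFIB lay beyond the median of this list, which was chosen by hand, in FAPs and SCs, while NFIC and NFIX lay on the other side of it.

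At passage 2 NFIX of FAPs was again near its level in muscle, while NFIB of SCs was lower still. In the unsorted and FAP cultures NFIX of FAPs was 69.1 ± 13.8 CPM at passage 2, higher than at passage 0 in 6 of 6 donors and without overlap (log2FC 1.07, SE 0.12). NFIC was 163 ± 4.23 CPM, also higher in 6 of 6 and without overlap (log2FC 0.30, SE 0.04). NFIA was 35.2 ± 18.0 CPM (log2FC 0.45, SE 0.26), higher in 5 of 6, and NFIB 32.5 ± 15.5 CPM (log2FC 0.37, SE 0.21), higher in 3 of 6, so neither moved beyond the spread of donors. All 4 were above 0 with a median of 0.41, against 0.01 over 11638 genes. At passages 5 and 8 the donors of each member in FAPs overlapped those of the passage before. In CPM, NFIC was higher at passage 8 than at passage 5 in 6 of 6 donors (158 ± 8.42 and 172 ± 12.1 CPM) and NFIX in 5 of 6, with a log2FC after scaling of -0.01 and 0.06. NFIX was 70.8 ± 11.5 CPM at passage 5 and 80.6 ± 18.0 at passage 8, and NFIA 41.8 ± 12.8 and 38.0 ± 22.7.

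In SCs of the unsorted and SC cultures NFIB was 15.5 ± 6.43 CPM at passage 2, lower than at passage 0 in 6 of 6 donors without overlap (log2FC -1.13, SE 0.20). At passage 5 it was 8.08 ± 5.69 CPM, lower than at passage 2 in 6 of 6 (log2FC -1.07, SE 0.49). The donors at passage 5 were 10.4, 7.78, 1.70, 8.15, 17.5 and 2.92 CPM for donors 1, 2, 5, 6, 9 and 10, so donors 5 and 10, both SC cultures, were lowest. Over the passages NFIB of SCs went from 107 CPM in muscle to 34.7, 15.5 and 8.08 CPM. NFIA was 22.9 ± 7.95 CPM at passage 2 (log2FC -0.45, SE 0.16) and 22.5 ± 8.02 at passage 5. NFIC (189 ± 14.5 CPM at passage 2) was higher than at passage 0 in 6 of 6 donors with a log2FC of 0.18 (SE 0.05), and NFIX (93.4 ± 26.0 CPM) was higher in 5 of 6 (log2FC 0.28, SE 0.15). At passage 8 only 4 donors had at least 10 SCs, and the pooled NFIB level of 156 SCs was 3.78 CPM (95% exact Poisson interval 1.81 to 6.96), from 10 UMIs of which the 12 cells of donor 9 gave 3.

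**Figure D3:**
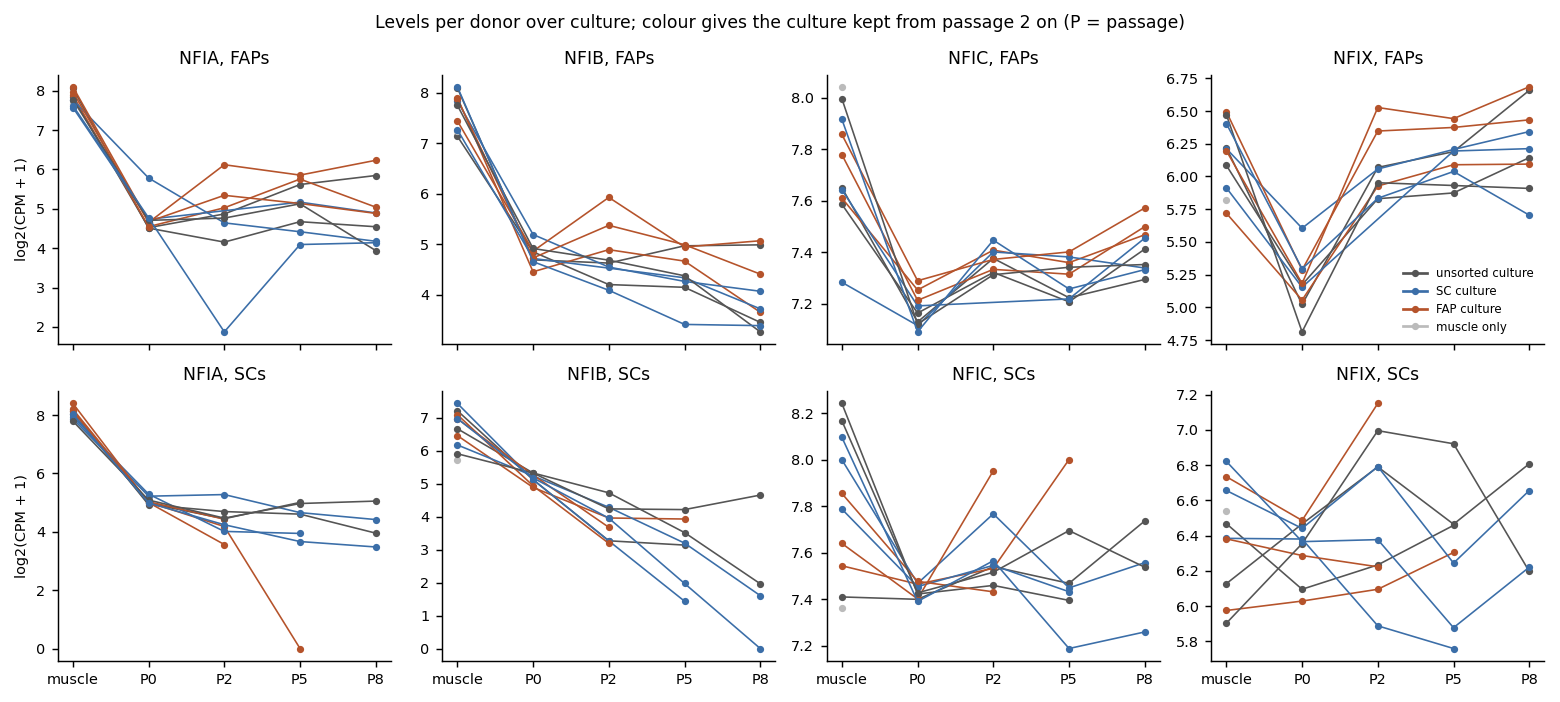
log2(CPM + 1) per donor with at least 10 cells at 5 stages, FAPs in the upper and SCs in the lower row, coloured by the culture kept from passage 2 on; each panel has its own vertical axis. NFIX of FAPs is lower at passage 0 than before and after it, NFIB of SCs has a lower mean at each stage, and the zero of NFIA in SCs at passage 5 is a sum of 10 cells from donor 4.

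SCs of the unsorted and SC cultures were set beside FAPs of the unsorted and FAP cultures at passage 2, so 3 of the 6 donors of each type were different animals in different cultures. NFIB was lower in SCs (log2FC -1.20, SE 0.34) and NFIA too (-0.74, SE 0.31), with overlapping donors for both, while NFIX (0.31, SE 0.20) overlapped too. NFIC did not overlap in CPM (158 to 169 in FAPs, 175 to 217 in SCs), and its log2FC after TMM scaling was 0.09 (SE 0.06). Donors 1, 2 and 9 were in both arms, and with the donor as a block the values were -0.43 for NFIB, -0.15 for NFIA, 0.64 for NFIX and 0.06 for NFIC. In these 3 donors NFIX was 110, 74.3 and 127 CPM in SCs and 55.9, 66.2 and 60.9 CPM in FAPs, higher in SCs in 3 of 3, and so was NFIC in CPM, whereas NFIA and NFIB were lower in SCs in 2 of 3 each and higher in donor 1 (NFIB 25.3 CPM in SCs and 17.4 CPM in FAPs). The FAP cultures of donors 4, 7 and 8, whose SCs were outside this fit, held 14.5, 8.11 and 11.8 NFIB CPM in SCs and 28.7, 40.5 and 59.9 CPM in FAPs. Without TMM factors NFIC was 0.22, and the median of all genes was 0.17 in place of 0.03.

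Across 19 pairs of cell type and stage with at least 3 donors, NFIA and NFIB followed each other (Spearman's rho 0.75) and so did NFIC and NFIX (0.64), while NFIB and NFIX did not (-0.11). These points share libraries and donors, and the muscle library sets much of the range. Among 7773 genes with a symbol and a mean of at least 10 CPM, the closest to NFIA were SEPTIN10 (0.91), TNS2 (0.90), TXNDC12 (0.89), HSBP1 (0.85) and TGFB2 (0.84). NFIB was nearest to EMP2 (0.93), PLPP3 (0.92), MBD1 (0.92), EPB41L2 (0.90) and LTBP1 (0.90). Near NFIC were FGFR1 (0.89), GATD1 (0.88), RNFT1 (0.87) and SPSB1 (0.82). NFIX had FITM2 (0.91), PIK3R2 (0.91), CILK1 (0.90), FAM229B (0.88) and TIMP2 (0.88).

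Calves and adults were compared next, to ask whether the level of a member depended on the age of the animal. In FAPs of muscle NFIB was higher in calves. The 5 calves were at 273, 239, 228, 235 and 277 CPM (donors 2, 4, 5, 7 and 10) and the 5 adults at 140, 152, 153, 173 and 215 CPM (donors 1, 3, 6, 8 and 9). The groups did not overlap, and only donor 9 among the adults came near the calves. NFIB rose by a log2FC of 0.70 (SE 0.13, adjusted p = 0.0083, edgeR quasi-likelihood test). It was the 1 member of 4 that was called, where 3.15% of the 6158 genes tested were. The 16 alternative fits, with sex as a covariate among them, gave adjusted p-values from 3.9e-04 to 0.062, and NFIB was called in 15. The highest came with all donor sums thinned to the smallest total, where the call was lost at a log2FC of 0.64. NFIA (log2FC 0.14, SE 0.14, adjusted p = 0.67), NFIX (0.25, SE 0.17, adjusted p = 0.52) and NFIC (-0.02, SE 0.14, adjusted p = 0.97) did not pass.

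Calves gave 530348 to 2268755 UMIs per donor sum of FAPs and adults 270458 to 860358. The 5 myocyte markers summed to 989 to 1233 CPM in calves and 742 to 1028 CPM in adults, and the 5 SC markers, of which 1 was at 0 in calves and 2 in adults, to 77.1 to 221 and 95.5 to 233 CPM. The 5 SMMC markers had a median sum of 44.1 CPM in calves (up to 77.3) and 24.4 CPM in adults (up to 39.3), the 5 VEC markers ran from 14.8 to 27.3 and from 3.18 to 88.7 CPM, and the 5 lymphocyte markers, 3 of them at 0 in calves, from 0 to 0.821 and from 0 to 27.9 CPM. The part of these in the result was not tested. Scaling moved the median of all genes from 0.00 to -0.11 without TMM factors, and NFIB was still called. Of 31 other transcription factors 3 rose and none fell. The glucocorticoid receptor NR3C1 went from 205 ± 51.7 to 294 ± 23.7 CPM (log2FC 0.65, adjusted p = 0.029) and PRRX1 from 72.4 ± 6.47 to 109 ± 14.9 CPM (0.72, adjusted p = 0.012). None of the 6 genes tested from the list linked to the family was called.

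At passage 0 no member was called between calves and adults. In FAPs 0% of 11466 genes were called by edgeR and 12 genes by DESeq2, with 575 genes at an unadjusted p under 0.05. NFIB was 26.2 ± 5.53 CPM in 5 calves and 27.6 ± 1.64 CPM in 4 adults (log2FC -0.06, SE 0.15, adjusted p = 0.99). In SCs 0% of 9908 genes were called by edgeR and 11 by DESeq2, with 1018 at an unadjusted p under 0.05. There NFIB was lower in calves, 32.1 ± 2.90 against 37.9 ± 1.19 CPM without overlap (28.5 to 35.0 against 36.6 to 38.9), a log2FC of -0.25 (SE 0.10) that did not pass the adjustment (adjusted p = 0.46). NFIX was 74.5 ± 8.24 CPM in calves and 85.7 ± 3.44 in adults (adjusted p = 0.50). Whether the difference in muscle FAPs differs from that at passage 0 was not tested.

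**Figure D4:**
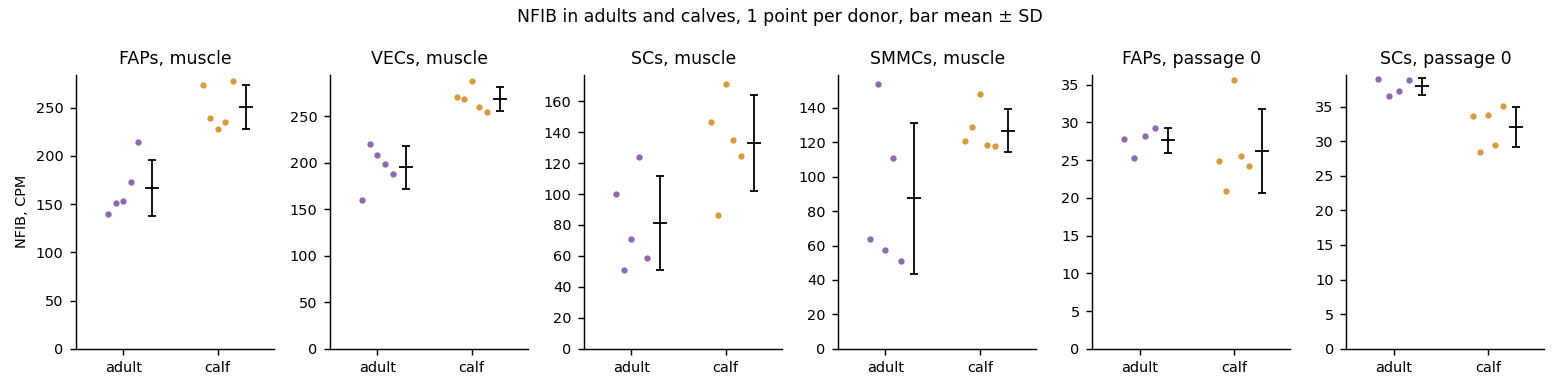
NFIB CPM in adults and calves for 4 cell types of muscle and 2 of passage 0, 1 point per donor and mean ± SD; vertical axes start at 0 and differ between panels. FAPs (227.9 CPM and above in calves, 214.9 and below in adults) and VECs of muscle do not overlap between ages, and at passage 0 SCs lie lower in calves.

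Cycling cells (labelled S or G2M in the deposited table) were compared with G1 cells of the same donors. The main fit left out this pairing, so the spread between donors entered its error. A member not called in it may still differ within donors. In FAPs at passage 0 no member was called without the donor as a block, where 35.9% of 10214 genes were. NFIC was 130 ± 9.85 CPM in G1 and 146 ± 6.48 in cycling cells, higher in 8 of 9 donors (log2FC 0.10, SE 0.04, adjusted p = 0.083). With the donor as a block NFIC (0.10, adjusted p = 0.040) and NFIX (0.18, adjusted p = 0.038) were called. The share of all genes called with the block is not given here, so these calls cannot be set against it. In FAPs at passage 2 no member was called without the block either, where 27.5% of 11020 genes were. NFIA was 36.4 ± 18.9 CPM in G1 and 30.4 ± 9.96 in cycling cells (log2FC -0.40, adjusted p = 0.39), NFIB 34.2 ± 16.4 and 27.3 ± 8.18 (-0.44, adjusted p = 0.30) and NFIX 70.2 ± 14.2 and 63.7 ± 9.38 (-0.24, adjusted p = 0.18). NFIC did not overlap in CPM (151 to 163 in G1, 174 to 177 in cycling cells) but did not pass either (0.07, adjusted p = 0.40). The donors spread widely in the other 3, and with the donor as a block these 3 were called lower in cycling cells (NFIA -0.27, adjusted p = 0.0056, NFIB -0.33, adjusted p = 0.012, and NFIX -0.21, adjusted p = 0.0057). Here too the share of all genes called with the block is not given, so the count of members cannot be set against it.

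In SCs at passage 2 again no member was called without the block, where 13.5% of 10343 genes were. NFIB was 14.4 ± 6.90 CPM in G1 and 16.5 ± 6.66 in cycling cells (log2FC 0.08, adjusted p = 0.93) and was called with the donor as a block (0.36, adjusted p = 0.029). That blocked fit is given without its share of all genes called. NFIX ran from 56.4 to 126 and from 59.4 to 137 CPM (-0.05, adjusted p = 0.94). NFIC was 182 ± 12.9 CPM in G1 and 205 ± 15.4 in cycling cells, higher in 6 of 6 donors in CPM, with a log2FC after scaling of 0.09 (adjusted p = 0.52). Cycling cells were deeper than G1 cells, with medians of 26095.5 and 17166.5 UMIs in FAPs at passage 0, 34933 and 27903 in FAPs at passage 2, and 29015 and 20538 in SCs. EZH2, which is known to follow proliferation, rose in all 3 comparisons (log2FC 1.45, 2.61 and 1.92).

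SCs at passage 2 were also split by MYOG, the gene of the myogenic factor that marks commitment to differentiation. MYOG-negative cells had no MYOG UMI, and MYOG-positive cells, with at least 2 UMIs, held 823 to 1523 MYOG CPM. Only the 3 SC cultures had at least 10 positive cells (184, 98 and 26 in donors 5, 6 and 10), against 6 donors with negative cells. NFIA was 10.7, 19.6 and 10.8 CPM in the positive cells and 16.2, 39.2 and 18.5 CPM in the negative cells of the same donors, lower in 3 of 3. Over all 6 donors the negative cells held 23.8 ± 8.14 NFIA CPM, for a log2FC of -0.84 (SE 0.33, adjusted p = 0.11), and with the donor as a block NFIA fell by 0.76 on the log2 scale (adjusted p = 0.0060). With cells of 1 UMI also taken as positive, the log2FC of NFIA was -0.44 (adjusted p = 0.61), of NFIB -0.21, of NFIX -0.26 and of NFIC 0.0086. With 2 UMIs NFIB was lower in 2 of 3 donors (-0.74, SE 0.45, adjusted p = 0.27), NFIX lower in 3 of 3 (-0.42, SE 0.30, adjusted p = 0.36), and NFIC higher in 2 of 3 (0.17, SE 0.13, adjusted p = 0.37). No member was called without the block, where 18.3% of 10093 genes were, and the share of all genes called with the block is not given here. Of the list linked to the family 3 of 12 genes rose, among them CKM (0.489 ± 0.285 to 124 ± 11.2 CPM) and the embryonic myosin gene MYH3 (2.51 ± 2.02 to 529 ± 91.3 CPM), which are genes of differentiating muscle. Of 39 other transcription factors 4 rose, with SOX6 (log2FC 2.87) and ID1 (1.54) leading, and 9 fell, with TWIST2 (-2.75) and KLF6 (-1.63) leading.

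The kind of culture was compared last. FAPs that grew in SC cultures had lower NFIA and NFIB than FAPs of FAP cultures at passage 5. NFIA was 20.4, 35.0 and 16.1 CPM in the SC cultures (donors 5, 6 and 10) and 53.0, 34.1 and 56.9 CPM in the FAP cultures (donors 4, 7 and 8), with donors 6 and 7 overlapping. It fell by 1.34 on the log2 scale (SE 0.27, adjusted p = 0.0060). NFIB was 18.2, 19.2 and 9.64 CPM against 24.4, 30.8 and 29.8 CPM without overlap, and fell by 1.00 (SE 0.22, adjusted p = 0.0067). NFIX was 72.8, 72.2 and 64.7 CPM against 67.1, 82.0 and 85.9 CPM, with overlap, and fell by 0.35 (SE 0.12, adjusted p = 0.046). NFIC did not pass (-0.26, SE 0.10, adjusted p = 0.057). The test thus called 3 of 4 members, where 40.6% of the 11517 genes were called.

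NFIA was called in 11 of 11 alternatives, with adjusted p-values from 7.5e-06 to 0.046, and NFIB in 11 of 11 with 2.5e-04 to 0.023. NFIX was called in 4 of 11. It lost the call with DESeq2 (adjusted p = 0.062), without TMM factors (adjusted p = 0.30) and when donor 5, 6, 7, 8 or 10 was left out, and without donor 5 NFIC was called (adjusted p = 0.024). Without TMM factors the median of all genes moved from -0.03 to 0.16. The SC cultures gave 593, 31 and 70 FAPs and the FAP cultures 1172 to 1437. The 5 SC markers summed to 13.6 to 76.8 CPM in FAPs of SC cultures and 15.0 to 19.3 CPM in those of FAP cultures, the 5 SMMC markers to 393 to 1030 and 235 to 498 CPM, the 5 VEC markers to 3.39 to 6.67 and 9.37 to 16.5 CPM, and the 5 tenocyte markers to 67.3 to 80.2 and 302 to 386 CPM. The mean percent of mitochondrial UMIs was 3.92 to 4.31 in the SC cultures and 3.34 to 3.78 in the FAP cultures. At passage 2 the FAPs of donors 5, 6 and 10 were 1, 1 and 3 G1 cells and 18, 6 and 9 cycling cells. Those of donors 4, 7 and 8 were 405, 655 and 779 G1 cells and 417, 210 and 66 cycling cells. Phases at passage 5 were not compared. The part of these in the result was not tested.

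Other genes moved widely in this comparison. Of 47 other transcription factors 28 fell and 3 rose, with KLF15 (log2FC -3.22) the lowest and MEOX1 (21.0 ± 8.16 to 109 ± 37.6 CPM, 2.25) the highest. Of the list linked to the family 3 of 12 fell, led by the collagen gene COL1A2 (14601 ± 2593 to 3131 ± 657 CPM, -2.43) and NFATC4 (39.3 ± 1.62 to 13.9 ± 3.74 CPM, -1.89), and 2 rose, the muscle enolase gene ENO3 (32.7 ± 7.36 to 156 ± 23.2 CPM, 2.03) and EZH2 (7.76 ± 1.40 to 35.4 ± 14.5 CPM, 1.84).

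No member was called between FAPs of unsorted and of FAP cultures at passage 5, where 2.93% of 11687 genes were. NFIA was 24.5, 48.1 and 34.0 CPM in the unsorted cultures (donors 1, 2 and 9), inside or below the FAP cultures (log2FC -0.36, SE 0.30, adjusted p = 0.48). NFIB (-0.28, adjusted p = 0.50), NFIX (-0.25, adjusted p = 0.30) and NFIC (-0.04, adjusted p = 0.76) did not pass. This comparison and the one before share the FAP cultures. Between SCs of unsorted and of SC cultures at passage 2 no member was called, where 14.4% of 11378 genes were. NFIB was 25.3, 8.61 and 17.8 CPM against 8.59, 18.4 and 14.5 CPM (log2FC 0.46, SE 0.41, adjusted p = 0.49). NFIX was 110, 74.3 and 127 CPM against 58.2, 110 and 82.1 CPM (0.43, SE 0.28, adjusted p = 0.33). NFIA was 0.04 and NFIC -0.01 after scaling, while the CPM of NFIC did not overlap (175 to 185 in the unsorted, 186 to 217 in the SC cultures).

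**Figure D5:**
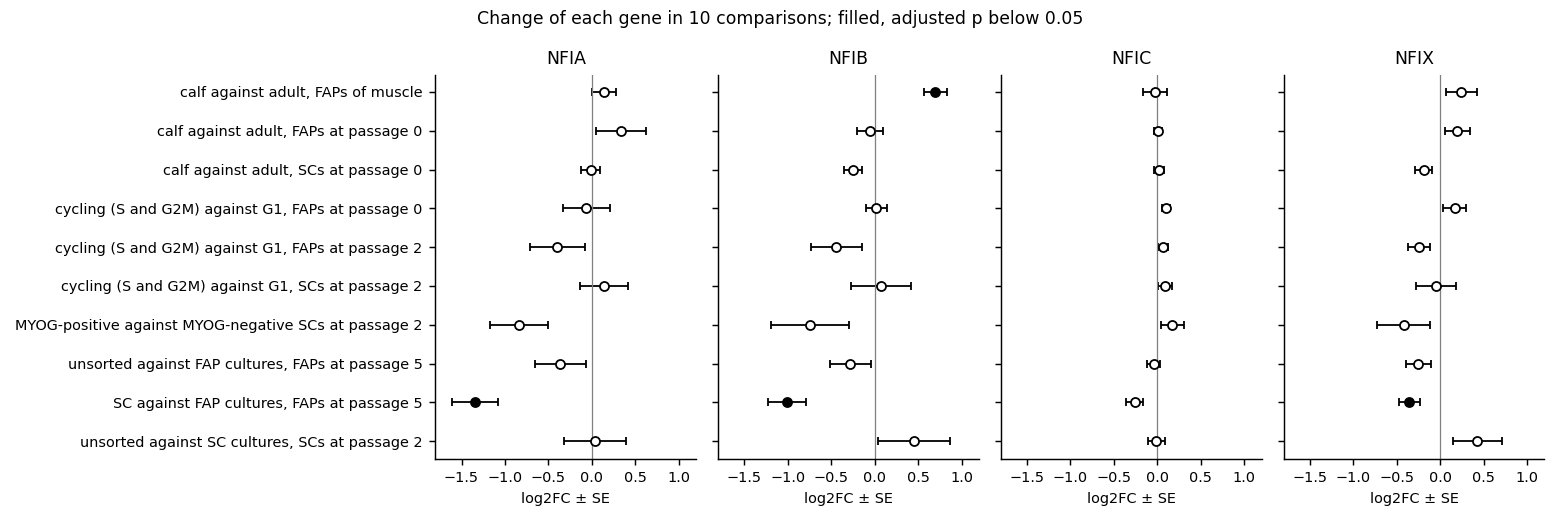
log2FC ± SE of each gene in the 10 comparisons that were tested, filled where the adjusted p was below 0.05 in the fit without a block. Filled points are NFIB in muscle FAPs of calves (0.70) and NFIA (-1.34), NFIB and NFIX (-0.35) in FAPs of SC cultures.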

How the data were processed

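Per the labels, the authors ran Cell Ranger 6.0.1 on build ARS-UCD1.2, and the deposited matrices give raw counts of UMIs with the sequencing runs of a library together. The labels list runs 1 and 2 for Timepoints 2, 3 and 4, and run 1 alone for Timepoints 1 and 5. Donors (demuxlet), cell types, phases and the percent of mitochondrial UMIs were taken from the authors' combined cell table, which lists the cells that passed their quality control. Over all the deposited cell tables, 64 columns were not used. Doublets were treated only as far as the authors had done so. The members and the gene lists were chosen with earlier results of these data known. Genes named are the members, the 5 genes nearest to each by Spearman correlation, MYOG, and of each list the 2 in each direction with the largest log2FC (called genes where a test was made, otherwise those of at least 10 CPM on average); some genes that this rule names are not reported here.

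Sums of UMIs per donor and class (at least 10 cells) were fitted across all genes in edgeR 4.0.16 under R 4.3.3, with filterByExpr, TMM factors, the robust quasi-likelihood F test (2-sided) and Benjamini-Hochberg adjustment over all genes tested. Called means an adjusted p under 0.05. The SE was derived from the log2FC and its F statistic. Alternatives were DESeq2 1.42.0, no filter, at least 30 cells, thinned sums, MYOG-positive cells from 1 UMI, no TMM factors, a further limit of 1 on the absolute log2FC, sex as a covariate, the donor as a block and leaving out each donor. A donor is 1 animal, so its samples are paired by the design; deviations of the same donor correlated above 0.1 in 6 of 9 (FAPs), 3 of 9 (SCs) and 3 of 9 (VECs) pairs between muscle and passage 0 and in all pairs of the other comparisons that share donors. The fits were tested on simulated data. Ages and sexes came from the study and cultures from the series description. With 1 library per timepoint, p-values measure the spread between animals within a library, and intervals cover counting error only. Coordinates and sequences were not used here.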

Additional observations from a re-analysis of the deposited data

Results flagged for a closer look

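Groups of 4 to 10 donors of FAPs, SCs and VECs were searched for a donor that stood apart, 48 groups in all, and 2 were found, where chance alone gives about 1 in 20. NFIA in FAPs at passage 0 was 54.1 CPM in donor 5 and 26.3 CPM in the next donor. NFIB in SCs at passage 8 was 24.1 CPM in donor 9, a pseudobulk of 12 cells, and 2.90 CPM in the next.

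NFIC changed in opposite directions between cell types on going from muscle to passage 0. Per donor, the log2 change of CPM was positive in 9 of 9 donors of VECs, with a median of 0.95 (0.10 to 1.53), and negative in 9 of 9 of FAPs, with a median of -0.52 (-0.88 to -0.17), and of SCs, with a median of -0.38 (-0.82 to -0.01). The difference between the types was not tested, and the muscle library was the shallower one for each of them.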

How the results depend on the processing

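The directions of NFIA and NFIB between muscle and passage 0 held in FAPs, SCs and VECs under each alternative that fitted the gene. NFIB of SCs was not fitted with thinned sums, so its direction at equal depth is not known. Members called between calves and adults in FAPs of muscle went from 1 to 0 with an absolute log2FC above 1 required and to 0 with thinned sums. With the donor as a replicate block, members called in cycling cells went from 0 to 2 in FAPs at passage 0, from 0 to 3 in FAPs at passage 2 and from 0 to 1 in SCs, and in MYOG-positive cells from 0 to 1. The block changed no other call. These counts stand without the share of all genes called with the block, so they are no result about the members as a set. In FAPs at passage 0, DESeq2, no filter and no TMM factors each called 1 member (NFIC), and no TMM factors called 1 (NFIC) in FAPs at passage 2. The median of the members in SCs between muscle and passage 0 was -0.75 without a filter. Thinned to 2000 UMIs, the shares of FAPs with a UMI in muscle and at passage 0 were 35.6% and 5.26% (NFIA), 35.6% and 5.16% (NFIB), 35.8% and 24.3% (NFIC), and 13.1% and 7.77% (NFIX).

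The tested values that changed sign had not been called. Thinned sums gave NFIC 0.0067 (calves, FAPs of muscle) and -0.051 (calves, SCs at passage 0). No TMM factors gave NFIA 0.025 and the block 0.0037 (cycling FAPs at passage 0), no TMM factors NFIX 0.050 (cycling SCs), and no filter and no TMM factors NFIA -0.0055 and -0.076 (unsorted against SC cultures). Leaving out 1 donor moved NFIC from -0.086 to 0.059 (calves, FAPs of muscle), NFIA from -0.032 to 0.42, NFIB from -0.22 to 0.018 and NFIC from -0.010 to 0.021 (calves, FAPs at passage 0), NFIA from -0.093 to 0.036 (calves, SCs), and NFIA from -0.20 to 0.54 and NFIC from -0.050 to 0.057 (unsorted against SC cultures). Between SC and FAP cultures 2 to 3 members were called, NFIA and NFIB in each fit. The causes were not tested. Thinned sums left NFIB and NFIX of SCs between muscle and passage 0 unfitted, and NFIA and NFIB of SCs between phases. The calf against adult fits without 1 donor, the MYOG fits without 1 donor and the fits without TMM factors were added after seeing the data. DESeq2 called 1297 genes against 343 between unsorted and FAP cultures. Depth limits the muscle library most, where a donor's SCs gave as few as 97693 UMIs.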

Other observations

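Calves also had more NFIB than adults in VECs of muscle, a comparison picked after the values had been seen and therefore given without a test. The 5 calves were at 254 to 288 CPM (268 ± 13.0) and the 5 adults at 160 to 220 CPM (195 ± 22.9), without overlap. In SCs of muscle calves held 133 ± 31.1 CPM and adults 81.1 ± 30.4 CPM, and in SMMCs 127 ± 12.6 and 87.4 ± 44.0 CPM, with overlap in both. In VECs of passage 0 the order was turned, with 43.6 ± 7.87 CPM in calves and 50.6 ± 2.82 CPM in adults, again with overlap. These types share their donors and library with the FAPs described above.

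Donor 8, an adult whose FAPs were sorted, had the highest NFIA level among FAPs of at least 10 cells at passages 2, 5 and 8 (68.5, 56.9 and 74.2 CPM), while at passage 0 it was at 24.2 CPM, near the median of 24.5 CPM.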
